A study of Mus musculus with 40 samples.

Results

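The Bcl2 family of cell death genes was followed through mouse oocyte growth by 10 named members: Bcl2, Bcl2l1, Bcl2l2, Bcl2l10, Bcl2l15, Mcl1, Bax, Bak1, Bbc3 and Pmaip1. A probe set was taken where its platform gene symbol was exactly a member's name, which gave 25 of the 45037 probe sets of the arrays. These 25 covered 9 of the 10 genes, as no probe set carried the symbol Bax, and Bax is not analysed here. At least 4 of the 20 arrays of a type reached a scaled signal of 100 for 17 of the 25 probe sets, which were tested and covered 7 genes. Bak1 and Pmaip1 stayed under that limit and are given as signals, with no test.

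The BCL2 family decides whether the outer mitochondrial membrane is opened, the step that releases cytochrome c and starts the caspases. Guardians such as BCL2, BCL2L1 (BCL-XL), BCL2L2 (BCL-W) and MCL1 keep the pore-forming effectors BAX and BAK1 in check, and BH3-only proteins such as BBC3 (PUMA) and PMAIP1 (NOXA) bind and neutralise the guardians. In mouse primordial follicles MCL1 is known to keep oocytes alive, and TAp63 is known to turn on Bbc3 and Pmaip1 there after DNA damage.

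Oocytes were isolated from ovaries of SJLB6 female mice. They came from primordial follicles at 2 days of age (400 oocytes a sample), primary follicles at 6 days (90 oocytes), secondary follicles at 12 days (60 oocytes), small antral follicles at 17 days (30 oocytes) and large antral follicles at 24 days (20 oocytes). Each stage gave 4 replicates for the Affymetrix mouse array 430A and 4 for 430B, a second array with probe sets of its own, 40 samples in all. For 3 of the 4 small antral samples on 430B the protocol text instead names 12 days and 60 oocytes. Their titles say small antral and were followed. Stage, age and the number of oocytes changed together and cannot be told apart. The labels call the replicates biological without saying which animals gave which sample, so p-values measure the spread between these samples.

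Signals are the authors' MAS5 intensities, a brightness per probe set on a linear scale, scaled here so that every array has a 2% trimmed mean of 500. They are relative to the rest of the array, so fewer cells of a type and less RNA per cell cannot be told apart, and levels of different probe sets are not set against each other. Changes are differences of log2(scaled signal + 32) from limma, fitted over all 20 arrays of a type, with Benjamini-Hochberg adjusted p-values over all tested probe sets, called under 0.05. On 430A, between 57.4% and 64.7% of probe sets reached 100 per array. Low signals are understated in fold by the added 32.

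The primordial columns differ in form from the others. For primordial replicates 2, 3 and 4, 2 times the deposited signal minus that of replicate 1 was negative for 0 of 22526 probe sets of 430A and 0 of 22411 of 430B, leaving out 100 probe sets of 430A whose decimals were not on the common step of the values. Within the other stages, over 48 ordered replicate pairs on each array type, the same quantity was negative for 1120 to 2857 and 1989 to 3790 probe sets. The 3 columns thus have the form of a mean with replicate 1, and the spread at that stage is then understated. Where a called change of a member against the primordial stage is printed, its result from unmixed values is given too. Unmixed values are 2 times the deposited signal minus replicate 1. No member probe set lay off the grid and none turned negative when unmixed.

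The 10 oocyte markers measured on 430A (Gdf9, Bmp15, Zp1, Zp2, Zp3, Ddx4, Dazl, Figla, Nobox and Oosp1) averaged at least 100 at all 5 stages. Their sum per array was 52123 to 69767 in primordial, 113068 to 119207 in primary, 119427 to 133354 in secondary, 109570.0 to 123625 in small antral and 82913 to 92806 in large antral samples. Of the 10, 6 rose and 1 fell in primary minus primordial, where 26.5% of all tested 430A probe sets rose and 30.0% fell. In large antral minus primary 3 rose and 6 fell, where 19.3% and 21.3% of all did. In the fit with unmixed primordial values, explained above, 6 rose and 2 fell in the first comparison. In the second none rose and 5 fell. Granulosa cell markers were present at a low summed signal that moved with stage: 10 of them summed to 879 to 1179 per array in primordial, 1270 to 1550 in primary, 1665 to 1965 in secondary, 1868 to 2012 in small antral and 1832 to 1946 in large antral samples. Of these 10, between 4 and 5 averaged at least 100 at a stage. Amh, a defining product of granulosa cells of growing follicles, averaged 25.5 ± 8.84 in large antral and 8.11 ± 2.96 in primordial samples (SD, n = 4 each), close to the bottom of the scale. Amh was picked by name and does not stand for the granulosa markers that averaged at least 100. In large antral minus primary 3 of the 9 tested granulosa genes rose (Inha, Hsd17b1 and Fst) and none fell, where 19.3% of all tested probe sets rose on 430A and 7.44% on 430B.

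Theca and stroma genes summed to 1389 to 1987 in primordial, 873 to 1208 in primary, 891 to 1209 in secondary, 1051 to 1506 in small antral and 922 to 1318 in large antral samples, highest on average in primordial ones. Of 5 tested, none rose and 2 fell in primary minus primordial (3 fell unmixed), where 26.5% of all tested 430A probe sets rose and 30.0% fell. None rose and 3 fell in large antral minus primordial, where 30.2% and 34.6% of all did. Surface epithelium genes summed to 677 to 917 in primordial, 497 to 707 in primary, 834 to 1077 in secondary, 476 to 676 in small antral and 460.3 to 534 in large antral samples. Of 4 tested, 1 rose and 3 fell in large antral minus primordial, against 30.2% and 34.6% of all tested 430A probe sets. Blood, immune and endothelial genes summed to 757 to 1165 in primordial, 702 to 855 in primary, 749 to 1058 in secondary, 645 to 987 in small antral and 986 to 1145 in large antral samples. Of 7 tested, 6 of them on 430A, 2 rose and none fell in large antral minus primary. There 19.3% of all tested probe sets rose on 430A and 7.44% on 430B. In large antral minus primordial 2 rose (1 unmixed) and none fell, where 30.2% rose on 430A and 13.8% on 430B. The part of other cells' RNA in the changes below was not tested.

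Across growth the guardian Mcl1 fell at 3 of the 4 steps, Bcl2l10 and Bcl2l1 rose when follicles left the primordial stage, and Bcl2l15 appeared at the small antral stage. From primordial to primary follicles 3 of the 7 tested genes rose (Bcl2l10, Bcl2l1 and Bcl2l2) and Mcl1 fell. Over all of 430A, 26.5% of tested probe sets rose and 30.0% fell in that comparison. With unmixed primordial values 2 rose and 1 fell, as Bcl2l2 lost its call. From primary to secondary none rose and Bcl2l1 fell, against 9.49% and 8.73% of all probe sets. That count rests on a call that unmixed values end.

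From secondary to small antral follicles Bcl2l15 rose and Mcl1 fell, against 6.12% and 10.1% of all probe sets that rose and fell. From small to large antral follicles none rose and Mcl1 fell, against 4.70% and 5.67%. Over the whole growth phase, large antral against primary, Bcl2l15 rose and Mcl1 fell, against 19.3% and 21.3%. Over the whole series, large antral against primordial, 3 genes rose (Bcl2l10, Bcl2l1 and Bcl2l15) and 2 fell (Mcl1 and Bbc3), against 30.2% and 34.6%. The median change of the 7 genes was -0.14 on the log2 scale in primary minus primordial and -0.13 in large antral minus primary, where the medians over all tested 430A probe sets were -0.08 and -0.00340. No count was tested against these shares, and none is read as particular to the family. Bcl2l15 passed the signal limit only through the stages where it was high, so its place among the tested genes is no evidence of a difference.

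**Figure D1:**
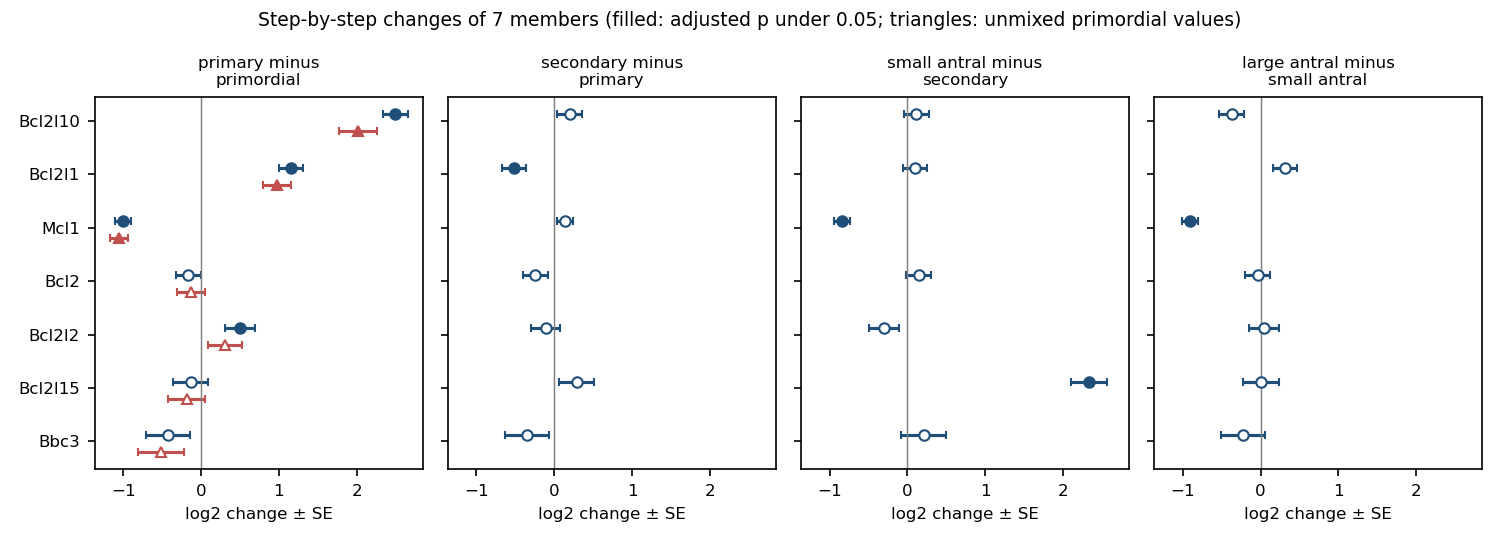
Log2 change per step (horizontal axis, bars are SE) for the 7 tested members, 1 representative 430A probe set each, with 4 samples per stage. Filled symbols have an adjusted p under 0.05 and red triangles use the unmixed primordial values. Mcl1 lies left of zero at 3 of the 4 steps and Bcl2l15 moves at the step from secondary to small antral.

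Mcl1, a short-lived guardian protein, had 6 probe sets, all on 430A and all tested. Its brightest, 1437527_x_at, gave scaled signals of 4007, 3974, 4104 and 4121 in primordial oocytes, 1919.8, 2192, 1972 and 1936 in primary and 2022, 2179.7, 2385 and 2265 in secondary ones. It gave 1219.5, 1385, 1272 and 1042 in small antral and 566, 632, 592 and 773 in large antral oocytes. Each primordial sample lay above all later ones, primary and secondary samples overlapped, and both antral stages stood below them and apart from each other.

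The log2 change of Mcl1 was -1.01 ± 0.10 in primary minus primordial (SE, n = 4 per stage; limma adjusted p = 8.83e-09; -1.06 ± 0.12 unmixed). It was 0.14 ± 0.10 in secondary minus primary, which did not pass (adjusted p = 0.393, 95% interval -0.08 to 0.36). It was -0.84 ± 0.10 in small antral minus secondary and -0.91 ± 0.10 in large antral minus small antral (adjusted p = 2.4e-06 and 6.88e-06). The fall of 1437527_x_at was thus called at 3 steps, with no called change between primary and secondary follicles. Other Mcl1 probe sets differed from it in places, as given below. In sum 1437527_x_at was 6.11-fold lower in large antral than in primordial oocytes (log2 change -2.61 ± 0.10, limma adjusted p = 1.17e-16, and -2.67 ± 0.12 unmixed). It was 3.04-fold lower in large antral than in primary ones (log2 change -1.61 ± 0.10).

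All 6 Mcl1 probe sets fell in large antral minus primary, with log2 changes from -1.69 ± 0.13 for 1456243_x_at to -1.12 ± 0.20 for 1416881_at. In large antral minus primordial all 6 fell too, from -3.34 ± 0.13 for 1456243_x_at to -1.64 ± 0.20 for 1416881_at. Unmixed, those 2 changed by -3.38 ± 0.15 and -1.24 ± 0.30. Also 6 of 6 fell from primordial to primary as deposited, and 5 of 6 fell at each of the last 2 steps, all but 1416881_at. In the fit with unmixed values 1416880_at also missed at both of those steps (adjusted p = 0.19 and 0.055). The probe sets read 1 gene and share transcripts, and those ending in _x_at can hold probes that match other genes, so they are repeated readings and not replicates. They disagreed in 2 places. At the primary to secondary step 1456243_x_at rose, with a log2 change of 0.49 ± 0.13 (adjusted p = 0.00804; 0.0418 with the unmixed fit), against -0.29 ± 0.20 for 1416881_at.

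At the first step 1416880_at and 1416881_at lost their calls when unmixed, with log2 changes of -0.60 ± 0.12 and -0.52 ± 0.20 as deposited and -0.09 ± 0.22 and -0.13 ± 0.30 unmixed. For 1416880_at the signals were 763, 613, 632 and 699 in primary oocytes, against unmixed primordial signals of 1348, 413, 649 and 724. Primordial replicate 1 alone was high there, and the other 3 overlapped the primary samples or lay below them.

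**Figure D2:**
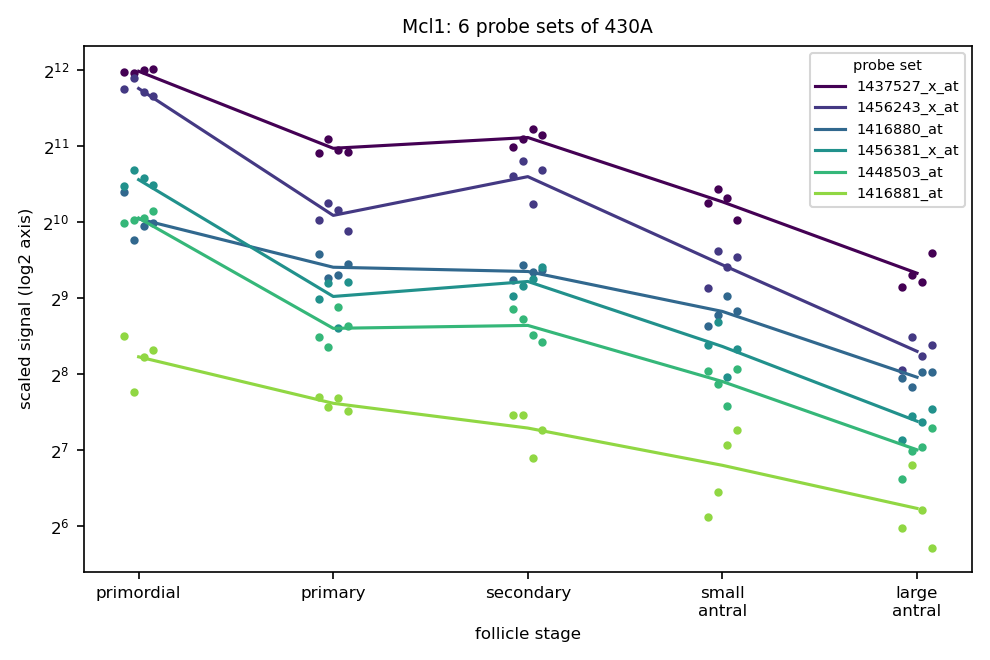
Scaled signal (log2 axis) of the 6 Mcl1 probe sets by follicle stage, with points for the 4 samples per stage as deposited and lines through the stage means. All 6 lines end lower at large antral than at primary, and 5 of the 6 fell past the threshold at both antral steps.

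The promoters of Mcl1 and Bcl2l15 are shown as a picked pair. These genes moved in opposite directions at the small antral step and their promoters differ in base composition, so the contrast comes from the choice. Both sequences are from RefSeq's GRCm38.p6 table and run 5′ to 3′ from 250 bases before to 50 bases after a start listed for the gene. Both stretches lie inside the annotated span of their gene, not at its outer boundary. Matches to the E-box letters CANNTG (the same on both strands) are in capitals. The E-box is the motif of bHLH factors, which include the oocyte factor FIGLA. Mcl1 lies at chr3:95658471-95658770 on the + strand and Bcl2l15 at chr3:103832446-103832745 on the + strand.
Mcl1: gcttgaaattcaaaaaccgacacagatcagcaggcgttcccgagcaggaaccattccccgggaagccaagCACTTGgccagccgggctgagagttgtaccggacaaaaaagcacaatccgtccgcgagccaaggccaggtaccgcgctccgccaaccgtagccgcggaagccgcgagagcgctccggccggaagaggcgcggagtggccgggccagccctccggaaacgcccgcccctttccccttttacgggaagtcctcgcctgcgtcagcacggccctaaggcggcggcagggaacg
Bcl2l15: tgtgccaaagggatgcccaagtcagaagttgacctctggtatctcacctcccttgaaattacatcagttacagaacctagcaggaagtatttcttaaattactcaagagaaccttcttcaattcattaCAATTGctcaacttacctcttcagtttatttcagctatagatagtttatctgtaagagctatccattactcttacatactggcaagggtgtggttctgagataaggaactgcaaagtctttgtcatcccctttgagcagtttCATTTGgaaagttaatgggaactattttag

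The Mcl1 stretch had 65.67% G and C and 33 CG dinucleotides, and the Bcl2l15 stretch 38.33% and 0, where the medians over 32851 promoters of the same length were 52.7% and 7. Members not called at the small antral step had 76% (Bcl2), 65.33% (Bcl2l2), 74.67% to 78% (starts of Bbc3) and 49.33% to 55.67% (starts of Bcl2l1). A relation of base composition to the changes was not tested. Mcl1 held 1 match to CANNTG and Bcl2l15 held 2, and 72.3% of all promoters held at least 1. Neither held TAATTA or TAATTG, letters bound by homeobox factors, which 12.4% of promoters did on either strand, or TATAAA, which 13.6% did. These are descriptions of letters and name no site.

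Bcl2l10, also called Boo or Diva in mouse, is a family member made mainly in the ovary whose product has been reported both to hold back and to favour cell death. Its single probe set, 1416434_at, gave scaled signals of 2148, 4562, 4143 and 4761 in primordial oocytes, 22854, 21053, 20337 and 20639 in primary and 26129, 21327, 24977 and 25074 in secondary ones. It gave 27238, 27521, 27201 and 23602 in small antral and 22275, 19367, 19118 and 20862 in large antral oocytes. The primordial samples were low, with replicate 1 the lowest, and all 16 later samples were far above them.

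The rise from primordial to primary was 5.64-fold (log2 change 2.50 ± 0.16, adjusted p = 2.38e-12). Unmixed primordial signals were 2148, 7166, 6259 and 7629, still all under the lowest primary sample, and the log2 change was 2.02 ± 0.25 (adjusted p = 7.59e-07). The 3 unmixed columns other than replicate 1 lay close together and apart from it. Among growing stages the order of means was small antral, secondary, primary and large antral from high to low, and no neighbours in that order differed past the threshold (adjusted p = 0.699, 0.445 and 0.813).

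At the last step all 4 large antral samples of Bcl2l10 lay below all 4 small antral ones, with a log2 change of -0.37 ± 0.16 that did not pass in the fit of all 20 arrays (adjusted p = 0.142). That fit shares 1 spread with the primordial stage. It passed without the primordial stage (adjusted p = 0.00391), with only those 2 stages (0.0149) and without primordial replicate 1 (0.00262). Under quantile normalization the change was 0.08 (adjusted p = 0.792), so the direction of this step turned with the scaling.

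Bcl2l1 encodes BCL-XL, a guardian. Its tested probe set 1420888_at gave scaled signals of 726, 923, 794 and 874 in primordial, 2079.5, 1876, 1843 and 1749 in primary and 1679, 1149.6, 1435 and 1043 in secondary oocytes. It gave 1029.7, 1807, 1655 and 1246 in small antral and 1933, 1490.1, 1784 and 1848 in large antral oocytes. The primordial samples were lowest and overlapped no later stage, while the 4 growing stages overlapped except that all primary samples lay above all secondary ones.

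Bcl2l1 was 2.23-fold higher in primary than in primordial oocytes (log2 change 1.16 ± 0.15, adjusted p = 6.17e-07; 0.97 ± 0.18 unmixed, adjusted p = 0.000114). Unmixed primordial signals were 726, 1156, 883 and 1066. Replicates 2 and 4 then reached into the range of the secondary and small antral samples and stayed under every primary one.

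From primary to secondary Bcl2l1 fell by 0.52 on the log2 scale (SE 0.15, adjusted p = 0.0196). The call was lost in the fit with unmixed primordial values (adjusted p = 0.0825) and without primary replicate 1, secondary replicate 2 or secondary replicate 4 (adjusted p = 0.0604, 0.0606 and 0.0851). Large antral minus primary was -0.10 ± 0.15 (adjusted p = 0.656, 95% interval -0.43 to 0.23).

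The other 3 probe sets of Bcl2l1 were under the signal limit. 1420887_a_at gave 23.1, 128, 95.1 and 65.8 in large antral oocytes, against 12.9 to 43.0 over the 16 earlier samples. Replicates 2 to 4 were higher there and replicate 1 was not. 1426050_at ranged over 3.64 to 59.5 and 1426191_a_at over 4.63 to 9.92 across all 20 samples.

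**Figure D3:**
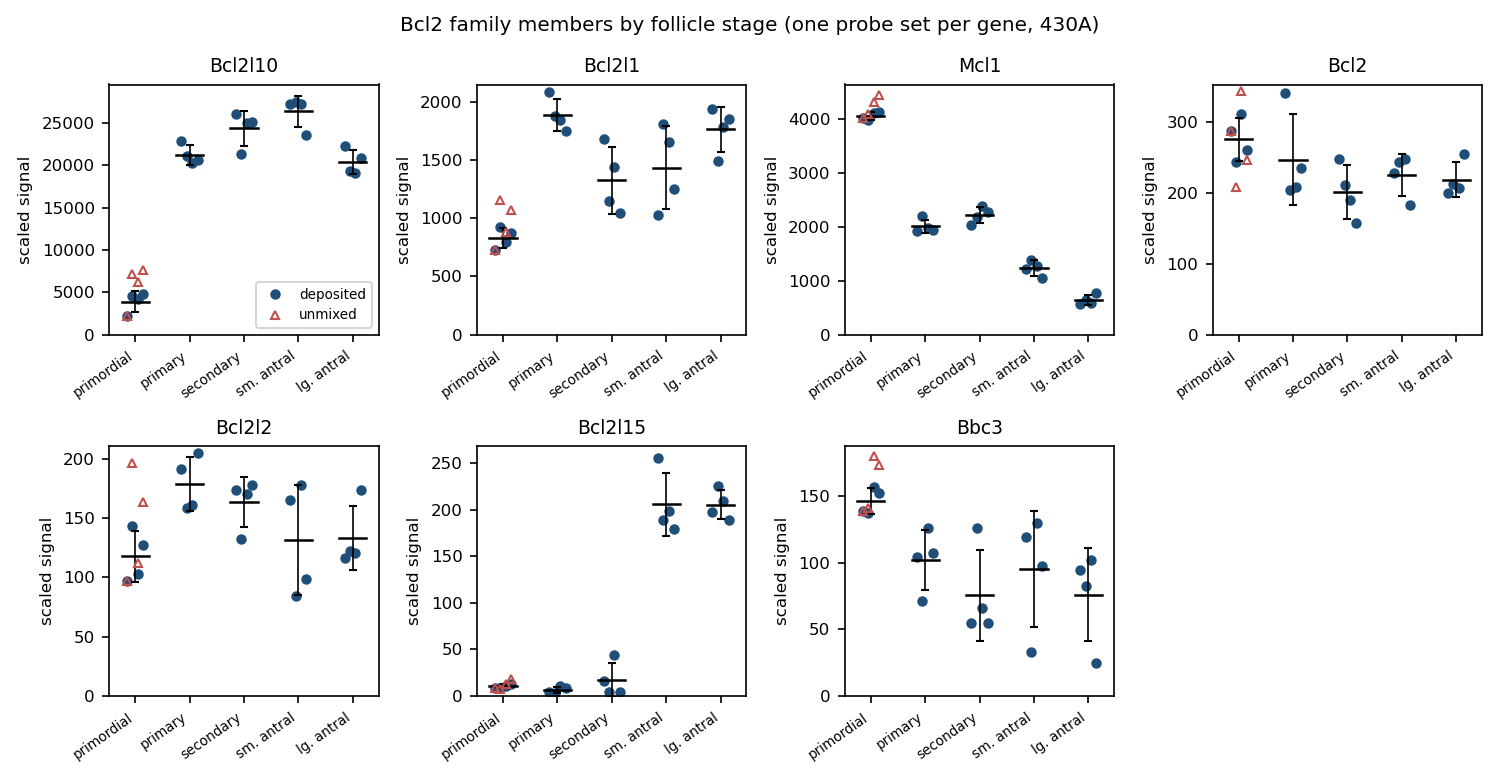
Scaled signal (linear axis) of 7 members by follicle stage on 430A, with small antral and large antral shortened to sm. antral and lg. antral. Blue points are the 4 samples per stage as deposited, black lines their mean and SD, and red triangles the unmixed primordial values. Bcl2l15 is at most 44.0 in the 12 samples of the first 3 stages and at least 179 in the 8 antral ones.

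Bcl2, the founding guardian, had 5 tested probe sets, 1 on 430A and 4 on 430B. 1422938_at on 430A gave scaled signals of 287, 243, 311 and 260.4 in primordial, 340.5, 204, 208 and 235 in primary and 249, 211, 189.7 and 157 in secondary oocytes. It gave 229, 243, 247 and 183 in small antral and 201, 213, 207 and 255 in large antral oocytes. The stages overlapped, with primary replicate 1 the highest sample of all.

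No step of 1422938_at passed, and large antral minus primordial was -0.29 ± 0.16 (adjusted p = 0.11, 95% interval -0.63 to 0.05). Only secondary minus primordial passed among all 10 pairs of stages (-0.41 ± 0.16, adjusted p = 0.0306; 33.0% of all tested 430A probe sets fell in that pair), and it was lost when unmixed (adjusted p = 0.0901). On 430B, where the median standard error of a change was 0.34 against 0.17 on 430A, 2 of the 4 Bcl2 probe sets fell in large antral minus primordial, in which 13.8% of all tested 430B probe sets rose and 24.6% fell.

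Bcl2 1457687_at averaged 312 ± 99.8 in large antral and 768 ± 125 in primordial oocytes (SD, n = 4 each), a log2 change of -1.26 ± 0.37 (adjusted p = 0.00954), which was lost when unmixed (-1.02 ± 0.41, adjusted p = 0.0646). 1440770_at averaged 76.5 ± 30.8 in large antral and 245 ± 42.3 in primordial oocytes, a log2 change of -1.38 ± 0.46 (adjusted p = 0.0203; -1.65 ± 0.49 unmixed). Scaling to a common median ended both calls (adjusted p = 0.0628 and 0.0709). That scaling raised the median of all 430B changes in this comparison by 0.31, and 58.2% of all called 430B probe sets were then rises, against 36.0% in the main scaling. In primary minus primordial the shift was 0.28, and the share of rises was 62.2% against 37.9%.

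1437122_at fell from primordial to primary (-0.61 ± 0.22, adjusted p = 0.039; lost when unmixed, 0.0935), where 12.0% of tested 430B probe sets rose and 19.7% fell. It averaged 283 ± 48.1 in primary and 447 ± 64.5 in primordial oocytes. 1457687_at was also lower in small antral than in primordial oocytes (-1.87 ± 0.37, adjusted p = 0.000291, and -1.63 ± 0.41 unmixed, adjusted p = 0.0037), where 23.7% of tested 430B probe sets fell. It was lower in small antral than in primary oocytes too (-1.30 ± 0.37, adjusted p = 0.0197, and 0.05, at the threshold, in the unmixed fit), where 6.91% fell. 1440770_at was lower in secondary than in primordial oocytes (-1.96 ± 0.46, adjusted p = 0.00174, and -2.23 ± 0.49 unmixed, adjusted p = 0.00126), where 23.0% of tested 430B probe sets fell. 1443837_x_at passed in none of the 10 pairs of stages and had its highest mean in primary oocytes. All 5 Bcl2 probe sets had negative changes in secondary, small antral and large antral minus primordial, comparisons that share the primordial samples. As deposited, 2, 1 and 2 of the 5 passed. When unmixed, 1422938_at was lost in the first (adjusted p = 0.0901) and 1457687_at in the third (0.0646). The medians over all tested probe sets were also negative there, -0.27, -0.25 and -0.25 on 430B and -0.08, -0.09 and -0.07 on 430A. In primary minus primordial 4 of the 5 Bcl2 probe sets were negative, where the 430B median was -0.23, and 1443837_x_at was 0.35 ± 0.36 (adjusted p = 0.493).

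Small antral replicates 2, 3 and 4 on 430B carry a protocol text with the age and number of oocytes used for secondary follicles, while their titles say small antral. 1457687_at read 110.4, 461, 340.0 and 52.8 in small antral and 418, 445, 343 and 440.4 in secondary samples. Replicates 1 and 4 were low and replicates 2 and 3 were within or near the secondary range. Small antral minus secondary was -1.03 ± 0.37 (adjusted p = 0.133), and -1.63 (adjusted p = 0.0148) without those 3, which leaves 1 small antral sample that is assumed to vary like the other stages.

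Bcl2l2 encodes BCL-W, a guardian best known from sperm formation. 1423572_at gave scaled signals of 97.2, 144, 103 and 127 in primordial, 192, 159, 161 and 205 in primary and 173, 133, 170.2 and 178 in secondary oocytes. It gave 165, 84.7, 178 and 98.5 in small antral and 116, 123, 121 and 173 in large antral oocytes. All primary samples lay above all primordial ones as deposited.

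1423572_at rose from primordial to primary (0.50 ± 0.19, adjusted p = 0.0284), but unmixed primordial signals of 97.2, 196, 112 and 163 overlapped the primary ones and the call was lost (0.31 ± 0.22, adjusted p = 0.251). It was also lost without primordial replicate 1 or 3 or primary replicate 1 or 4.

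The second tested probe set, 1430453_a_at, went the other way at that step and fell (-0.61 ± 0.22, adjusted p = 0.0231; -0.62 ± 0.23 unmixed, adjusted p = 0.0302). It gave 75.7, 81.3, 79.3 and 48.6 in primary and 126, 124, 119.8 and 126 in primordial oocytes, with no overlap. At the last step it rose, with 97.8, 132, 81.2 and 105 in large antral and 27.1, 30.8, 50.9 and 52.2 in small antral oocytes, again with no overlap (log2 change 0.92 ± 0.22, adjusted p = 0.0102). This probe set reached 100 on 6 arrays, 4 primordial and 2 large antral. It thus passed the signal limit only through the stages where it was high, and its calls carry that limit. The 4 primordial arrays alone met it, so the p of the fall from primordial to primary supports nothing. As measured, the probe sets of Bcl2l2 differed in sign at the first step, and the difference between them was not tested. The other 2 probe sets of Bcl2l2 were under the signal limit, with 1451029_at over 9.25 to 124 and 1430454_x_at over 6.61 to 65.4 in all 20 samples.

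**Figure D4:**
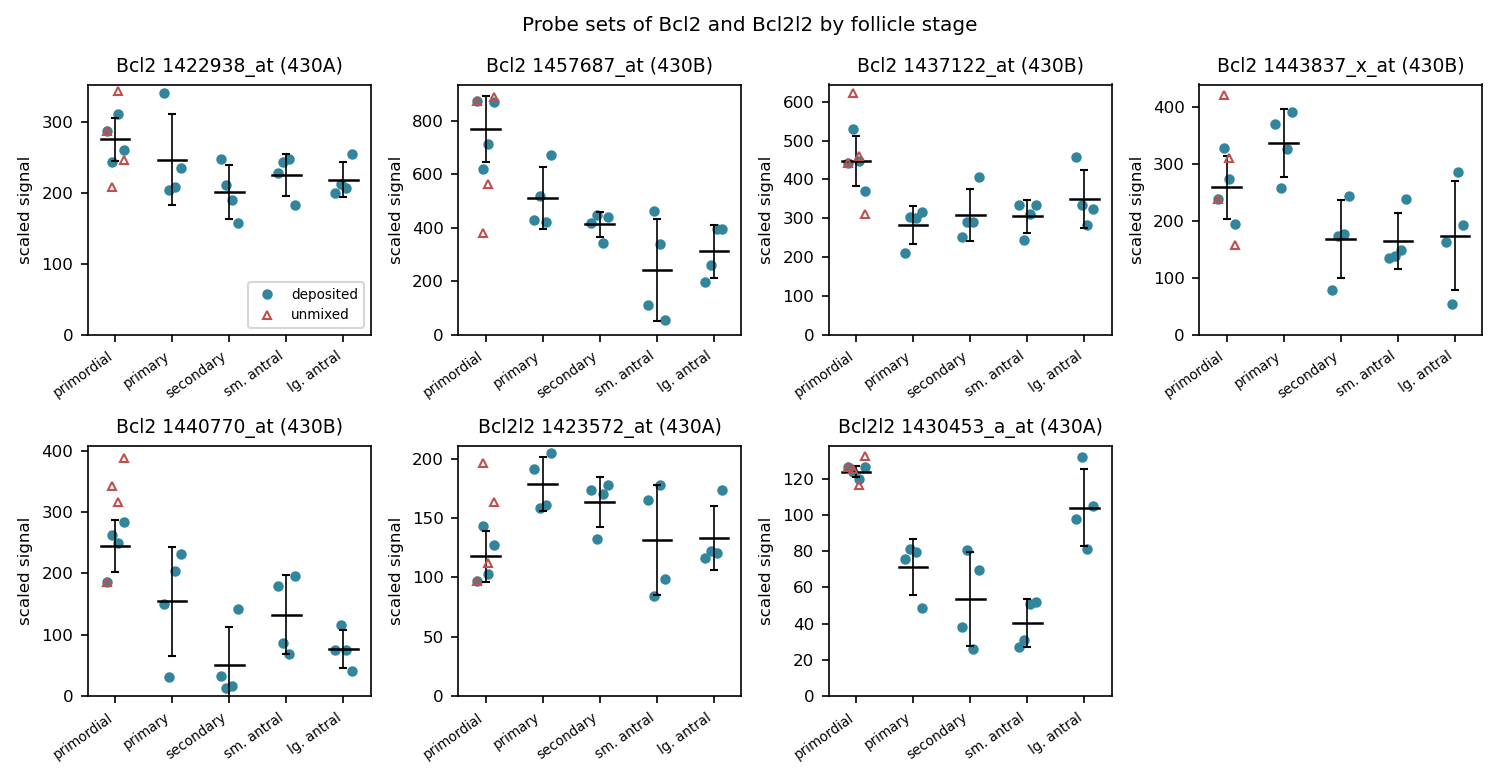
Scaled signal (linear axis) of the 5 Bcl2 and 2 Bcl2l2 tested probe sets by follicle stage, array type in each title, with small antral and large antral shortened. Points are 4 samples per stage as deposited, black lines mean and SD (lower bars are cut at zero), and triangles unmixed primordial values. The Bcl2l2 panels differ in direction from primordial to primary.

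Bcl2l15, also called Bfk, encodes a family member with BH3 and BH2 regions that was described in mouse as weakly favouring cell death. 1452614_at gave scaled signals of 8.93, 8.29, 10.6 and 13.1 in primordial, 4.30, 3.31, 10.2 and 8.27 in primary and 15.9, 4.30, 44.0 and 4.63 in secondary oocytes, all far under the limit of 100. It gave 256, 189, 199 and 179 in small antral and 198, 226, 209 and 189 in large antral oocytes. All 8 antral samples were high and all 12 earlier ones low, with no overlap.

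The log2 change was 2.33 ± 0.23 in small antral minus secondary (adjusted p = 1.14e-07) and 0.01 ± 0.23 in large antral minus small antral (adjusted p = 0.991, 95% interval -0.48 to 0.50). Bcl2l15 passed the signal limit only through the antral samples, where it was high. The test of small antral minus secondary thus had to find a difference, and its p supports nothing. The size of that change depends on the number added before the logarithm. It was 2.88 with 16 added and 1.75 with 64. It passed with both, under the same limit on what the p can show. Under the stricter limit, 4 arrays at 200, Bcl2l15 was not tested.

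Of the effectors, Bak1 had 2 probe sets and neither was tested. 1418991_at ranged over 8.93 to 73.2 and 1425716_s_at over 6.95 to 100.5 in the 20 samples, with the top value in secondary replicate 3. In both probe sets the ranges of all stages overlapped that of secondary samples. A signal this low on an array is not evidence that the protein is missing.

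Bbc3 encodes PUMA, a BH3-only protein needed for the loss of primordial follicle oocytes after DNA damage in mice. 1423315_at gave scaled signals of 139, 137, 157 and 152 in primordial, 104, 71.1, 126 and 107 in primary and 54.9, 126, 66.1 and 54.9 in secondary oocytes. It gave 119.7, 33.4, 130.2 and 97.8 in small antral and 94.8, 82.6, 102 and 25.1 in large antral oocytes. The primordial samples were the highest, and single samples of the secondary, small antral and large antral stages lay far from the other 3.

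No single step of Bbc3 passed. Secondary minus primordial was -0.78 ± 0.28 (adjusted p = 0.0211; 0.0191 unmixed). Large antral minus primordial was -0.80 ± 0.28 (adjusted p = 0.0172; -0.88 ± 0.30 unmixed, adjusted p = 0.0157). That call was lost without large antral replicate 4 (-0.51, adjusted p = 0.103), with scaling to a common median (-0.64, adjusted p = 0.0575) and with quantile normalization (-0.62, adjusted p = 0.0612). Scaling to a common median raised the median of all 430A changes by 0.16 in this comparison and by 0.13 in primary minus primordial.

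Pmaip1 encodes NOXA, which neutralises MCL1. 1418203_at gave 27.1, 17.1, 21.8 and 48.2 in primordial, 7.60, 4.96, 28.4 and 7.94 in primary and 4.96, 7.94, 3.30 and 5.62 in secondary oocytes, all under the limit. It gave 4.30, 7.61, 2.64 and 3.64 in small antral and 0.991, 1.65, 2.64 and 3.64 in large antral oocytes. The primordial mean was the highest, primordial and primary samples overlapped, and the whole range lies near the bottom of the scale.

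The other genes of the pathway were read from lists chosen with earlier results of these data known. Beside the list counts in large antral minus primary stand the 19.3% of all tested 430A probe sets that rose and the 21.3% that fell, and no list count was tested against them. Of 11 other family genes tested, 9 of them on 430A and the rest on 430B (where 7.44% rose and 8.23% fell), none rose and 2 fell: Bnip3, a receptor for removing mitochondria, changed by -0.71 ± 0.11 (adjusted p = 1.42e-05) and the BH3-only gene Bcl2l11 (BIM) by -0.65 ± 0.26 (adjusted p = 0.0445). Over 32 alternatives the adjusted p of Bcl2l11 ran from 0.00022 to 0.211. The call was lost when unmixed, with no signal limit, with no trend, and without any 1 of the primary or large antral replicates, primordial replicate 2 or secondary replicate 1. The list's median change was -0.16. In primary minus primordial 2 of the 11 rose and 4 fell, where 26.5% and 30.0% of 430A probe sets and 12.0% and 19.7% of 430B ones did.

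Singled out after its values were seen, Bid, which links death receptors to mitochondria, averaged 14.3 ± 5.30 in primary and 284 ± 61.6 in primordial oocytes, a log2 change of -2.76 ± 0.24 (adjusted p = 4.84e-10; -2.23 unmixed). Bid passed the signal limit only through the primordial samples, where it was high, so the test had to find a difference and the p supports nothing. Bik, a BH3-only gene also singled out so, averaged 407 ± 72.4 in primary and 136 ± 52.3 in primordial oocytes (1.43 ± 0.18, adjusted p = 3.45e-07; 1.28 unmixed). Bid stayed near the bottom of the scale at all later stages, and Bik averaged 342 ± 53.6 in large antral ones.

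Among 18 tested genes of mitochondrial release, the apoptosome, caspases and their inhibitors, 7 rose and 7 fell in large antral minus primary, where 19.3% and 21.3% of all did, with a median change of -0.04. The rises of smallest adjusted p were Vdac2, a membrane channel that holds BAK1 (0.94 ± 0.12), Birc5, or survivin, which acts in cell division (0.74 ± 0.13), and Cycs, cytochrome c (0.59 ± 0.11). The falls were Xiap, a direct caspase inhibitor (-1.17 ± 0.12), Endog, a mitochondrial nuclease (-1.14 ± 0.14), and Casp6, an effector caspase (-1.20 ± 0.16). Their adjusted p-values were 1.19e-06, 6.18e-05, 0.000161, 2.25e-08, 3.26e-07 and 1.06e-06 in that order.

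Genes of this list moved in both directions in large antral minus primary. Xiap averaged 745 ± 56.7 in primordial, 477 ± 50.8 in primary, 357 ± 28.0 in secondary, 279 ± 27.4 in small antral and 195 ± 25.7 in large antral oocytes. Samples of neighbouring stages did not overlap as deposited, where the primordial spread is understated. Vdac2 had its lowest mean in primary oocytes, 1285 ± 47.2, and averaged 2500.3 ± 177 in large antral ones. Of the 7 falls in this list 4 were kept in the unmixed fit, and of the 7 rises 5 were. In primary minus primordial 5 of the 18 tested genes rose and 11 fell (5 and 9 unmixed), with a median change of -0.62. There 26.5% of all tested 430A probe sets rose and 30.0% fell. The counts were not tested against these shares.

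Of 7 tested genes of the death receptor pathway 1 rose and 1 fell in large antral minus primary, against 19.3% and 21.3% of all, with a median of -0.20. Fasl, the ligand of FAS, changed by 0.65 ± 0.26 (adjusted p = 0.045; 0.0281 to 0.164 over 31 alternatives). The Fasl call was lost with unmixed values, quantile normalization or no signal limit, and without primordial replicate 2 or 3, primary replicate 1, 2 or 3, secondary replicate 4 or large antral replicate 2, 3 or 4. With a limit of 200 Fasl was not tested. Fadd, the adaptor that recruits CASP8, changed by -0.48 ± 0.15 (adjusted p = 0.0152).

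Of 9 tested transcription regulators that act on family genes, 4 rose and 2 fell, against 19.3% and 21.3% of all, with a median of 0.34. Mdm4, which restrains p53, changed by 1.90 ± 0.12 (adjusted p = 1.09e-11), with means of 6625 ± 456 in large antral and 1750.3 ± 169 in primary oocytes. Ddit3 (CHOP), a stress factor, changed by 1.04 ± 0.15 (adjusted p = 5.34e-06) and Foxo1, a factor of the insulin pathway, by 0.40 ± 0.09 (adjusted p = 0.000537). Trp63, whose TAp63 protein is the p53 relative of oocytes, changed by -1.75 ± 0.11 (adjusted p = 1.01e-11), and Mdm2, the ligase that removes p53, by -0.44 ± 0.13 (adjusted p = 0.0071; 0.0899 with unmixed values, no longer called).

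Trp63 averaged 2920.1 ± 209 in primordial, 1509 ± 94.1 in primary, 984 ± 152 in secondary, 627 ± 61.0 in small antral and 428 ± 40.6 in large antral oocytes. Again neighbouring stages did not overlap as deposited, with the same limit at the primordial stage. Its known targets Bbc3 and Pmaip1 have their values above, and their relation to Trp63 was not tested.

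The 4 ubiquitin enzymes known to act on MCL1 protein split into 2 that rose and 1 that fell, against 19.3% and 21.3% of all. Btrc, an F-box protein, changed by 0.83 ± 0.13 and Usp9x, which removes ubiquitin from MCL1, by 0.38 ± 0.11 in large antral minus primary (adjusted p = 2.24e-05 and 0.00836). Fbxw7, another F-box protein, changed by -1.01 ± 0.19 (adjusted p = 0.000138), and Huwe1 (MULE) by -0.39 ± 0.16, just short of the threshold (adjusted p = 0.0528). The median of the 4 was -0.00104. The arrays measure their transcripts, not the protein of Mcl1.

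**Figure D5:**
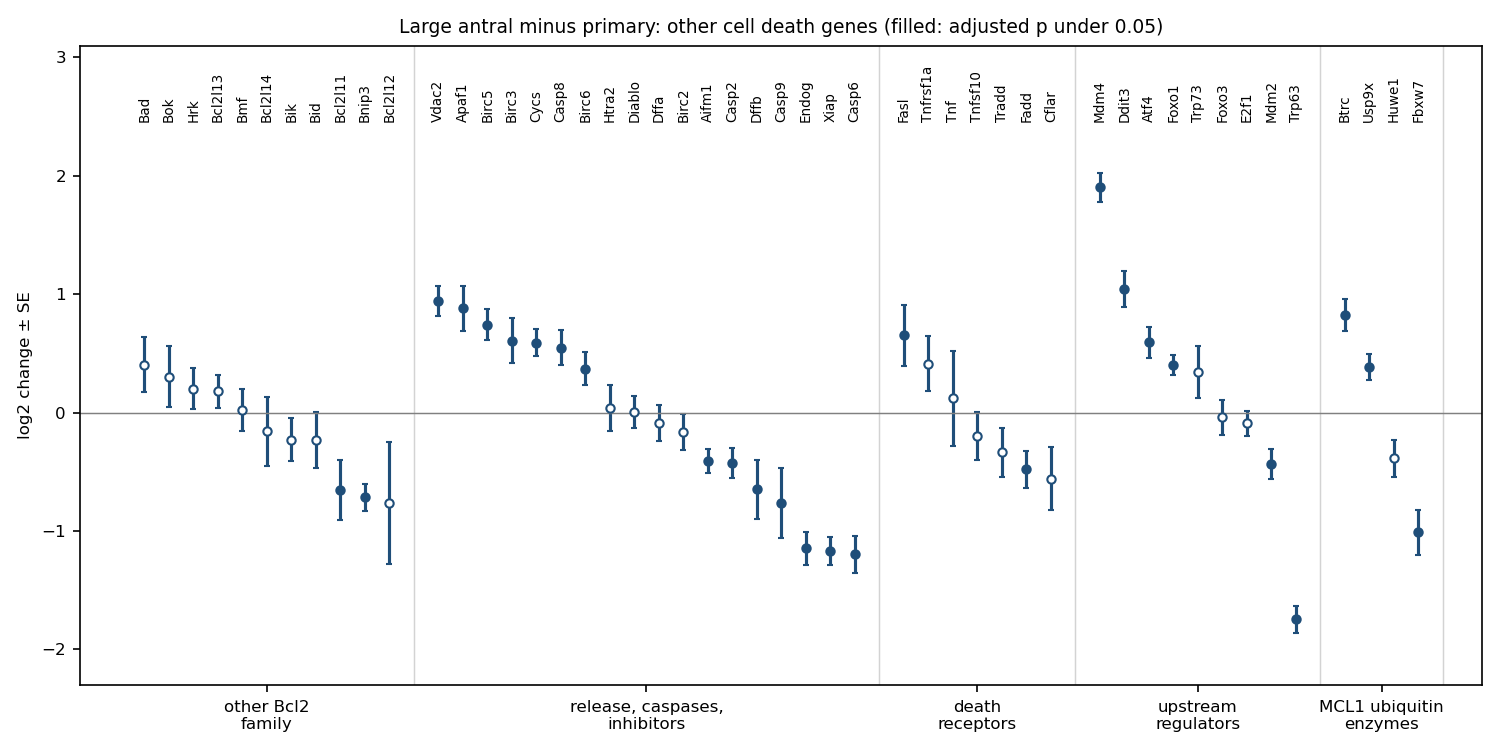
Log2 change in large antral minus primary oocytes (vertical axis, bars are SE, 4 samples per stage) of the 49 tested genes in 5 cell death lists, ordered by change within each list. Filled points have an adjusted p under 0.05. Mdm4 is highest, with a change of 1.90, and Trp63 lowest, with -1.75.

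The genes most like Bcl2l10 and Bcl2l15 in course were ranked by the root-mean-square difference of log2 signal, each profile centred on its own mean, over the 16 arrays of the 4 growing stages on 430A. For Bcl2l10 they were Marchf5, a ligase of the outer mitochondrial membrane, at 0.0732, Stt3b at 0.0890, Tsc22d1 at 0.0908, Fip1l1 at 0.0916 and Oosp1, an oocyte-secreted protein, at 0.0966. Oosp1 is 1 of the oocyte markers, and all 5 were nearly level from primary to large antral, with changes from -0.11 to 0.03. For Bcl2l15 they were Nfkbiz at 0.270, Ccnb3, a cyclin, at 0.338, Mep1b at 0.366, Cntn6 at 0.369 and Cd1d1 at 0.374.

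The genes like Bcl2l15 were higher in large antral than in primary oocytes, and were picked for that course. Nfkbiz averaged 1496 in large antral and 243 in primary oocytes, Ccnb3 averaged 750.5 in large antral and 75.2 in primary oocytes, and Cntn6 averaged 544 in large antral and 30.8 in primary oocytes. The distance is in log2 units, and its larger size for Bcl2l15 goes with signals near the bottom of the scale at 2 of the 4 stages.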

How the data were processed

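Oocyte RNA was amplified from small samples with the Affymetrix Small Sample Labeling protocol and hybridised to the 430A and 430B arrays, per the labels' protocols. The authors deposited 1 MAS5 intensity per probe set and sample, per the submitters' processing notes. Its version and further settings are not given in the sources used here. Stages were taken from the sample labels. Per-sample columns left unused numbered 0.

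Signals were multiplied to bring the 2% trimmed mean of each array to 500. Deposited trimmed means ran from 151 to 154 on 430A and 144 to 148 on 430B. Then 32 was added and log2 taken. Testing needed a signal of 100 on 4 or more of the 20 arrays, met by 15845 probe sets of 430A and 19115 of 430B. A separate model for each table was fitted in limma 3.58.1 under R 4.3.3 (lmFit, contrasts.fit, eBayes with trend, 15 residual degrees of freedom), with Benjamini-Hochberg adjustment within table and contrast and a threshold of 0.05. The method was tested on simulated data.

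A gene was represented by its brightest tested probe set, 430A before 430B, and its other probe sets are described. All members are named, with up to 3 rises and 3 falls of smallest adjusted p in large antral minus primary per list and the 5 closest profiles of Bcl2l10 and Bcl2l15. The members, lists and rules were chosen with earlier results of these data known. Probe set symbols are those of the platform annotation: 20380 probe sets of 430A had 1 symbol, 691 several and 1555 none, and 14565, 241 and 7605 on 430B. Promoters are from RefSeq (GRCm38.p6).

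Same-numbered samples did not deviate together. Their correlations between stages were -0.11 to 0.13 on 430A and -0.04 to 0.06 on 430B, so no pairing by number was seen. The check compares stages within an array type only and cannot exclude a shared preparation. Alternatives were other scalings, added numbers and signal limits, no trend, unmixed primordial values, fewer stages, the dimmest probe set per gene, a replicate block and each replicate left out.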

Additional observations from a re-analysis of the deposited data

Results flagged for a closer look

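In 85 groups of 4 samples, 1 per member probe set and stage among those tested, 6 held a sample far from the other 3 relative to the whole range, and chance gives about 1 in 20. For Bcl2, primary replicate 1 read 211 in 1437122_at and small antral replicate 4 read 239 in 1443837_x_at. That small antral sample is 1 of the 3 whose protocol names another stage.

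For Bcl2l2, secondary replicate 2 read 133 and large antral replicate 4 read 173 in 1423572_at, and primary replicate 4 read 48.6 in 1430453_a_at. For Bcl2l10, small antral replicate 4 read 23602, below 27201 to 27521 in the other 3 samples. No explanation was tested for any of them.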

How the results depend on the processing

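Array precision is limited by 4 samples a stage, by the form of the primordial columns and by dim probe sets, and the cause of the changes below was not tested. Of the values of single genes and probe sets under the alternatives, 8108 kept direction and side of the threshold, 90 stayed uncalled with a changed sign (such as Bcl2l10 in large antral minus small antral under quantile normalization), 54 gained a call, 192 lost one and 1 called value reversed: Huwe1 in primary minus primordial was 0.23 (adjusted p = 0.477) with unmixed values and -0.41 (adjusted p = 0.0301) as deposited.

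Among the 7 members, falls in large antral minus primordial numbered 1 with a common median or quantile normalization, against 2. With a limit of 200 they also numbered 1, since Bbc3 was then not tested. Bcl2l2 was not tested at that limit either, and rises in primary minus primordial numbered 2, against 3. Falls in primary minus primordial numbered 2 with no signal limit or the dimmest probe set, against 1. With no signal limit all 9 genes with a probe set are counted, so Bak1 and Pmaip1 enter and the gene set differs. Falls in large antral minus primordial then numbered 3. Rises in small antral minus secondary and in large antral minus primary numbered 0 with a limit of 200, against 1 each, since Bcl2l15 was then not tested. Falls in secondary minus primary numbered 0 with unmixed values, against 1. Falls in large antral minus small antral numbered 2 with only those 2 stages or without the primordial stage, against 1. With the dimmest probe set, falls in small antral minus secondary numbered 0, and in large antral minus small antral rises numbered 1 and falls 0.

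Among the lists in large antral minus primary, death receptor rises numbered 0 with quantile normalization, no limit, a limit of 200 or unmixed values and 2 with the dimmest probe set, and falls 2 with only the 2 stages. Ubiquitin enzyme falls numbered 2 with quantile normalization, a limit of 200, only the 2 stages or without the primordial stage. Falls of other family genes numbered 1 with no limit, no trend, unmixed values or the dimmest probe set, which also gave 1 rise, and their rises in primary minus primordial numbered 1 with a limit of 200 or unmixed values. Falls of release and caspase genes numbered 4 with unmixed values, and their rises 4 with the dimmest probe set. Falls of transcription regulators numbered 1 with unmixed values or the dimmest probe set.

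Leaving out each replicate in turn gave, among members, 2 to 3 rises in primary minus primordial, 0 to 1 falls in secondary minus primary, 1 to 2 falls in large antral minus small antral (2 without primordial replicate 1) and 1 to 2 in large antral minus primordial (1 without large antral replicate 4). In the lists, large antral minus primary, it gave 1 to 2 falls of other family genes, 6 to 7 rises and 5 to 7 falls of release and caspase genes, 0 to 1 rises and 0 to 1 falls of death receptor genes, 4 to 5 rises of regulators and 1 to 2 falls of ubiquitin enzymes. Falls of other family genes in primary minus primordial numbered 4 to 5.

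With the replicate number as a block, members numbered 3 rises and 1 fall in primary minus primordial, and no count of members changed. Samples correlated best with their own number in 5 of 20 cases on 430A and 7 of 20 on 430B.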
